A study of Homo sapiens with 9 samples.

Results

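Interferon response genes are the genes that cells turn on when an interferon binds its receptor. The set described here held 47 of them, listed by gene symbol with no threshold on a measured value. The listing was made with earlier results of these data known. All 47 matched 1 gene each among the 62700 genes of the annotation. RNA was sequenced from HAL-01, a human B cell acute lymphoblastic leukemia line that carries the t(17;19) translocation and makes the fusion transcription factor TCF3::HLF. All cells expressed Cas9 with GFP, and all received a lentiviral guide RNA. In 2 groups the guide (sgRNA_96 or sgRNA_97) was directed at the HLF motif of the *MEF2C* enhancer, and in the control group it was scrambled (SCR1). Each group had 3 libraries, numbered 1, 3 and 4 and collected on day 13, so that the enhancer KO class of both guides held 6 libraries and the control 3. The cells are 1 cell line, and neither the edited bases nor the share of edited cells was analysed here. No label says that the replicates came from separate cultures, so p-values measure the spread between these libraries, which may be technical.

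Type I interferons bind IFNAR1 and IFNAR2 and activate the kinases JAK1 and TYK2, which lead STAT2 and IRF9 into a complex that binds the interferon-stimulated response element (ISRE) in the promoters of antiviral genes. The products of these genes sense viral RNA, degrade RNA, block translation, hold viruses at membranes or change proteins with ADP-ribose or ISG15. Many of them are also transcribed at a low level without any interferon, and STAT2, IRF7 and IRF9 are themselves products of interferon-induced genes.

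The ISRE core was found in the promoters of some members. The following windows come from the RefSeq promoter table (GRCh38.p14). They belong to members that rose in enhancer KO, to the partner of 1 of them, or to members with too few counts to test. The motif searched was the ISRE core, GAAA followed by any 2 bases and GAAA again, on both strands, and capitals mark it as it reads on the strand of the gene.
EIF2AK2: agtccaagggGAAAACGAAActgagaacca
IFIT3: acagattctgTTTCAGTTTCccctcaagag
PARP14: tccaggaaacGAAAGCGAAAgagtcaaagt
PARP9: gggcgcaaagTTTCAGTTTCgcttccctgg
DTX3L: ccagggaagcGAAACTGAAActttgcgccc
OAS3: agccgggcggGAAAACGAAAccagaaatcc
IFI44L: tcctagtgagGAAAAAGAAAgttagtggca
IFI27: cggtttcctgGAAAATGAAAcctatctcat
The windows of *PARP9* and *DTX3L* are the same place, chr3:122564322-122564351, read from opposite strands, since these genes start back to back. The *EIF2AK2* window lies at chr2:37156967-37156996 on the minus strand, with the first base of the core at position -6 from the start site. The *IFIT3* window lies at chr10:89332425-89332454 on the plus strand, with its core at -94, and the *PARP14* window at chr3:122680800-122680829 on the plus strand, with its core at -29. The *OAS3* window lies at chr12:112938452-112938481, the *IFI44L* window at chr1:78620365-78620394 and the *IFI27* window at chr14:94110631-94110660, all on the plus strand.

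The promoter table gives 250 bases before and 50 bases after a start site, and it held 52 promoters of 38 members. The ISRE core was in 28 of those 52 promoters (53.8%), against 3.57% of all 35116 promoters in the table. The interferon-gamma activated site, searched on both strands as TTC and GAA with any 3 bases between them, was in 11 of the 52 (21.2%), against 7.66% of all promoters. In 4 members (*BST2*, *IFI27*, *IFITM1* and *MX1*) the letters of both cores overlapped. By gene, 24 of the 38 members had an ISRE core. Among members that rose in enhancer KO it was in 4 of the 7 with a promoter in the table. Among the tested members that were not called it was in 17 of 28, and among those with too few counts to test in 3 of 3. These matches describe the letters in the windows and not the binding of any factor.

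Totals lay between 15212462 and 29777361 counts per library, and levels are given as CPM, counts per 1000000 over library sizes scaled by the TMM method. *MEF2C*, the gene of the targeted enhancer, had CPM values of 560, 559 and 536 in SCR1, 495, 498 and 510 with sgRNA_96, and 553, 505 and 495 with sgRNA_97. Its log2 fold change in enhancer KO was -0.12 ± 0.04 (SE, n = 6 and 3; edgeR adjusted p = 0.062), which did not pass the threshold of 0.05, and without sgRNA_97 replicate 1 its adjusted p was 0.0143. DESeq2 called it lower (-0.12, adjusted p = 0.027), as did edgeR without both libraries that stood apart from the rest (-0.13, adjusted p = 0.0164). On the first principal component the SCR1 libraries stood apart from all KO libraries, and on the second sgRNA_96 replicate 1 and sgRNA_97 replicate 1 stood apart from the other 7, at opposite ends. All 8 B lineage markers were expressed, from 72.8 TPM for *EBF1* to 1630 TPM for *IGLL1* (transcript abundance, a level per length). Of the T cell markers *CD3D*, *CD3E* and *CD3G* had 0 counts and *CD2* had 1 over all libraries, and of the stromal markers *COL1A2*, *COL3A1* and *DCN* had 0 counts, while *COL1A1* had 37 in all, at 0.285 to 0.407 CPM in SCR1 and 0 to 0.535 in enhancer KO.

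Of the 47 members, 44 passed the filter on low counts and 3 did not. *OAS3*, which makes the 2-5A oligonucleotides that activate RNase L, had 2 counts over all 9 libraries. *IFI44L* had 42 counts in all and never exceeded 0.567 CPM. *IFI27*, a small mitochondrial and nuclear membrane protein that is among the most strongly induced genes in interferon-treated cells, had 45 counts in all and never exceeded 0.425 CPM. For comparison, 3 counts correspond to between 0.101 and 0.197 CPM in these libraries, so these 3 genes were at or near the limit of detection in enhancer KO and control alike.

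The levels of the tested members spanned 3 orders of magnitude, with a median of 17.9 TPM over the members' means. The highest were the membrane proteins *IFITM3*, *IFITM2* and *IFITM1*, which hold viruses at endosomal and surface membranes, with means over all 9 libraries of 1270, 790 and 401 TPM. They were followed by *LGALS3BP*, a secreted glycoprotein, at 142 TPM, by *TRIM22* at 127 TPM and by *ADAR*, which edits adenosine in double-stranded RNA, at 102 TPM. At the lower end, *MX1*, the dynamin-like GTPase often used as a reporter of interferon exposure, had a mean of 2.0 TPM, *RSAD2* (viperin) 1.33 TPM and *OASL* 0.591 TPM. *IFIT1* had 2.76 TPM and *ISG15* 36.8 TPM.

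**Figure D1:**
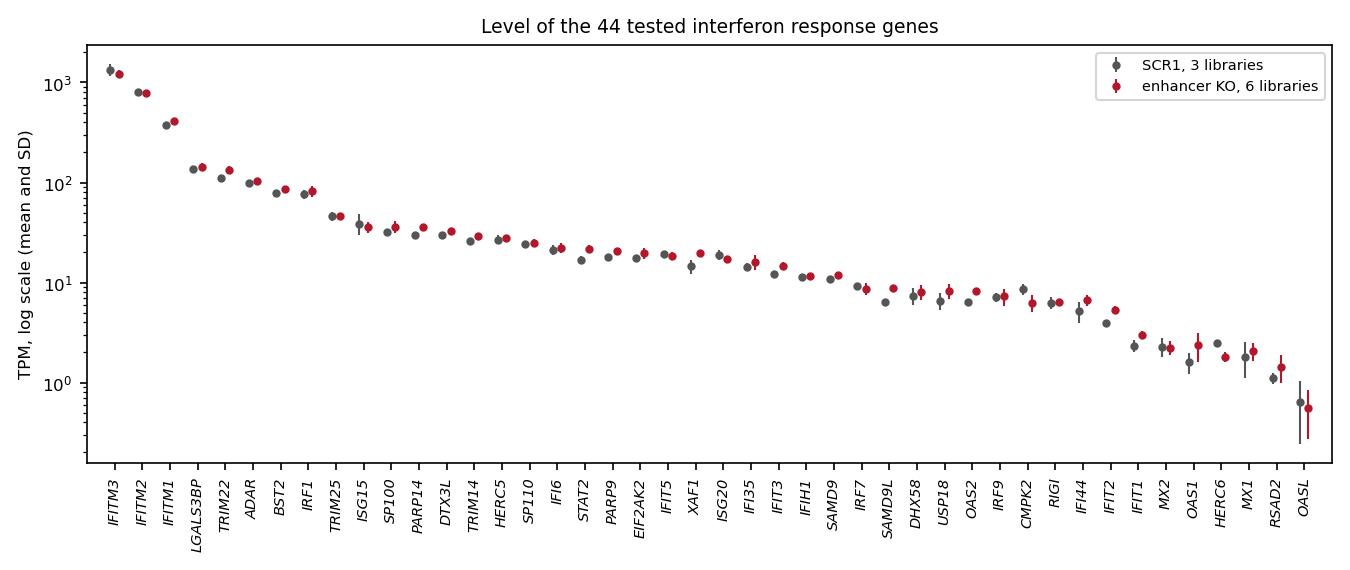
TPM on a log axis for the 44 tested members, ordered by their mean over 9 libraries, with the mean and SD of the 3 SCR1 libraries in grey and of the 6 enhancer KO libraries in red. Levels run from 1270 TPM for IFITM3 to 0.591 TPM for OASL, and the difference between genes is far larger than the difference between the groups.

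Enhancer KO was then compared with SCR1 gene by gene. Of the 44 tested members, 10 rose, none fell and 34 were not called. Over all 14436 genes tested, 20.7% were called (10.1% higher and 10.6% lower), against 22.7% of the members. The share of members called was therefore near that of all genes, while all 10 calls of the edgeR test had the same direction. DESeq2 called 12 members higher and 1, *TRIM25*, lower, where it called 1591 and 1655 of the 14436 genes. Without sgRNA_96 replicate 1 edgeR called 13 members higher and *TRIM25* lower, and 1674 and 1873 of 14348 genes. With limma on log2(TPM + 1) 6 members and 1240 of all genes were called, the calls of *EIF2AK2*, *OAS2*, *IFIT3* and *PARP9* being lost. With limma and no filter on low values only *SAMD9L* of the members was called, and 648 of all genes. At an unadjusted p under 0.05 there were 19 members (43.2% of those tested), against 33.5% of all genes. The median log2 fold change was 0.12 over the members and 0.003 over all genes. The estimate was above 0 in 35 of 44 members (79.5%) against 50.5% of all genes. Earlier results were known when the set was listed, so the shares here and below describe it and do not measure an excess. The changes were small, the 10 called members rising by 11.9% to 38.9%. The count of members called was 6 without SCR1 replicate 1 (1503 of all genes) and 6 without SCR1 replicate 4 (1813 of all genes). Without both libraries that stood apart on the second component, 11 members were higher and 1 lower (*TRIM25*), against 1654 and 1740 of all genes. In a bulk sample, more cells that express a gene and more RNA per cell cannot be told apart.

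**Figure D2:**
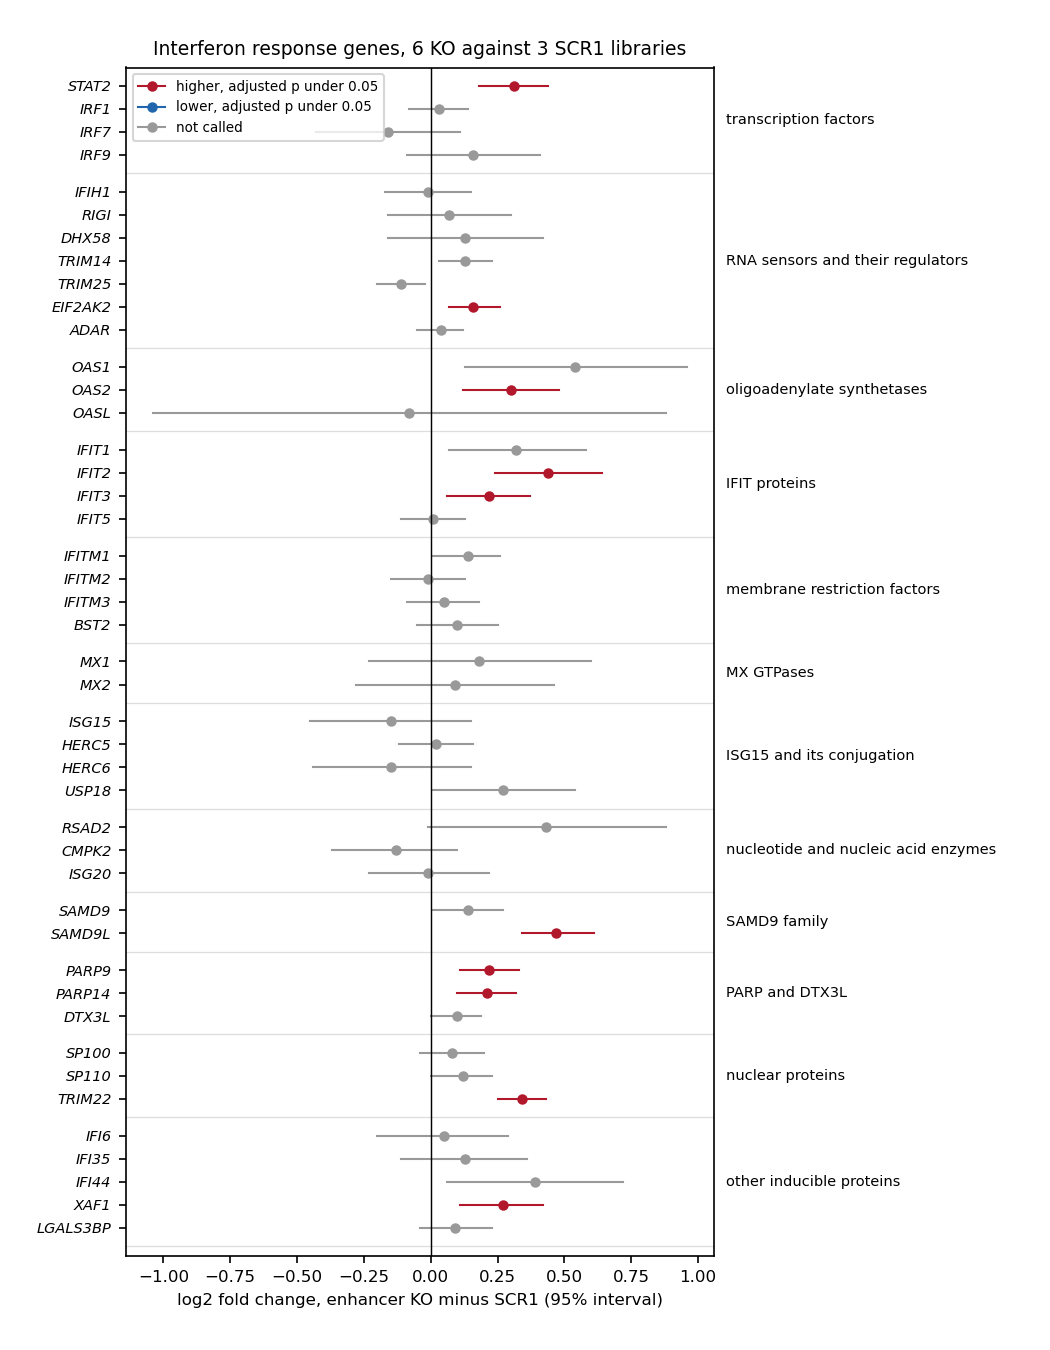
Log2 fold change of enhancer KO over SCR1 for the 44 tested members, grouped by role, with 95% intervals as lines and the 10 called members in red. Called members sit between 0.16 and 0.47, and no member is called lower.

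In 12 members every KO library lay above every SCR1 library (27.3% of those tested), against 10.1% of all genes. They were 9 of the called members (*OAS2* is the exception) together with *TRIM14*, *IFIT1* and *DTX3L*, of which the edgeR test called none in enhancer KO. The reverse arrangement was seen in 1 member, *TRIM25*, a ubiquitin ligase that acts on RIG-I, against 10.2% of all genes. *TRIM25* had a mean of 132 ± 4.55 CPM in enhancer KO and 142 ± 1.40 in SCR1 (SD, n = 6 and 3), a log2 fold change of -0.11 with an adjusted p of 0.078. *TRIM14*, an adaptor of mitochondrial antiviral signalling, had a log2 fold change of 0.13 with an adjusted p of 0.0528.

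Among the 4 transcription factors, *STAT2* rose and the others were not called. *STAT2*, which carries the activation domain of the ISRE-binding complex, had 46.5, 53.1 and 53.3 CPM in SCR1, 58.6, 64.5 and 66.8 with sgRNA_96, and 59.7, 66.4 and 61.0 with sgRNA_97. All KO libraries were above all SCR1 libraries, and the log2 fold change was 0.31 ± 0.06 (SE; adjusted p = 0.00241). *IRF9*, its DNA-binding partner, had 9.27, 8.67 and 8.04 CPM in SCR1 and from 8.32 to 11.0 with the guides. These ranges overlapped, and the log2 fold change was 0.16 with a 95% interval from -0.09 to 0.41 (adjusted p = 0.359). *IRF1*, a factor that also acts without interferon receptors, had 105, 98.5 and 93.4 CPM in SCR1 and between 96.2 and 108 in enhancer KO, with a log2 fold change of 0.03 (95% interval -0.08 to 0.14, adjusted p = 0.731) that was -0.01 without SCR1 replicate 4. *IRF7*, which amplifies interferon-alpha production, had 9.91, 9.75 and 9.50 CPM in SCR1, and 5 of the 6 KO libraries lay below these, between 7.48 and 8.37. The other, sgRNA_96 replicate 1, had 11.7 CPM, and over all 6 the log2 fold change was -0.16 with an interval from -0.43 to 0.11 (adjusted p = 0.397), while without that library it was -0.27 (adjusted p = 0.0632).

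The IFIT proteins bind foreign RNA ends and block its translation, and their genes lie side by side on chromosome 10. *IFIT2* had 10.2, 9.18 and 10.1 CPM in SCR1, 13.9, 13.2 and 13.5 with sgRNA_96, and 15.1, 12.7 and 12.1 with sgRNA_97. All KO values exceeded the control values, and *IFIT2* rose by a log2 fold change of 0.44 ± 0.09 (adjusted p = 0.00381). *IFIT3*, which stabilizes the IFIT complex, had 21.3, 21.7 and 22.2 CPM in SCR1, 26.8, 23.4 and 25.0 with sgRNA_96, and 28.1, 23.9 and 24.3 with sgRNA_97. The groups did not overlap, yet the call at 0.22 ± 0.07 was marginal (adjusted p = 0.0467). It was lost without SCR1 replicates 1, 3 or 4 (0.168, 0.107 and 0.0988), without sgRNA_96 replicates 1 or 4 (0.066 and 0.0617) and without sgRNA_97 replicates 1 or 4 (0.0826 and 0.0546). *IFIT1*, which recognizes RNA that lacks cap methylation, had 7.84, 6.27 and 8.56 CPM in SCR1, 8.70, 8.66 and 9.17 with sgRNA_96, and 10.7, 10.4 and 9.38 with sgRNA_97. In enhancer KO its log2 fold change was 0.32 ± 0.12 (adjusted p = 0.0689), and it was the only member called with a guide and not in enhancer KO. The fourth of the family, *IFIT5*, had a log2 fold change of 0.01 with an interval from -0.11 to 0.13.

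The *SAMD9* pair and the PARP group held 3 further rises. *SAMD9L*, a translation-repressing and growth-restricting protein, had 29.4, 30.4 and 30.8 CPM in SCR1, 36.4, 42.2 and 42.5 with sgRNA_96, and 43.6, 44 and 42.6 with sgRNA_97. The control values lay within a narrow range below all others, and its log2 fold change of 0.47 ± 0.06 was the largest among the called members (adjusted p = 0.000116). Its neighbour on chromosome 7, *SAMD9*, had a log2 fold change of 0.14 (95% interval 0.01 to 0.27, adjusted p = 0.125). *PARP9*, an ADP-ribosyltransferase that works in a complex with the ubiquitin ligase DTX3L, had 46.5, 45.1 and 46.3 CPM in SCR1, 53.9, 49.9 and 55.3 with sgRNA_96, and 54.1, 55.8 and 51.9 with sgRNA_97. It rose by 0.22 ± 0.05 (log2; adjusted p = 0.00769) with no overlap of the groups. The call was lost with limma on log2(TPM + 1) (adjusted p = 0.0919) and with the gene length offset (0.0592), at a log2 fold change of 0.20 in both. *DTX3L*, which shares the ISRE window shown above, had a mean of 140 ± 5.32 CPM in enhancer KO and 131 ± 2.83 in SCR1 (SD, n = 6 and 3), a log2 fold change of 0.10 with an adjusted p of 0.133. *PARP14*, a mono-ADP-ribosyltransferase, had 159, 165 and 156 CPM in SCR1, 190, 180 and 192 with sgRNA_96, and 200, 173 and 176 with sgRNA_97. Again no values overlapped, and *PARP14* rose by 0.21 ± 0.05 (log2; adjusted p = 0.0077), a call that was lost without SCR1 replicate 4 (adjusted p = 0.0529).

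The remaining rises were in *TRIM22*, *XAF1*, *EIF2AK2* and *OAS2*. *TRIM22*, a nuclear ubiquitin ligase that restricts viral transcription, had 198, 204 and 214 CPM in SCR1, 245, 266 and 254 with sgRNA_96, and 264, 271 and 260 with sgRNA_97. Its values in enhancer KO were all above control, and its log2 fold change of 0.34 ± 0.04 had the smallest adjusted p of the set (6.71e-05). *XAF1*, which antagonizes the inhibitor of apoptosis XIAP, had 28.1, 26.7 and 32.8 CPM in SCR1, 32.8, 35.5 and 34.5 with sgRNA_96, and 33.5, 35.6 and 38.7 with sgRNA_97. SCR1 replicate 4 and sgRNA_96 replicate 1 were level to 3 digits. The log2 fold change was 0.27 ± 0.07 (adjusted p = 0.0178), and the call was lost without SCR1 replicate 1 (0.109) or 3 (0.0886).

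*EIF2AK2* encodes PKR, the kinase that stops translation on binding double-stranded RNA. It had 111, 116 and 114 CPM in SCR1, 121, 127 and 135 with sgRNA_96, and 127, 131 and 122 with sgRNA_97. The groups did not overlap, and *EIF2AK2* rose by 0.16 ± 0.05 (log2; adjusted p = 0.0191), a call that was lost without SCR1 replicate 1 (0.117) or 4 (0.0641). The leading transcript held 83.9% ± 7.25 of the gene's counts in enhancer KO and 53.6% ± 15.9 in SCR1 (SD, n = 6 and 3), with no test made of that difference. With an offset for gene length the log2 fold change was 0.16 ± 0.08 (adjusted p = 0.272), and with limma on log2(TPM + 1) it was 0.15 ± 0.10 (adjusted p = 0.405), so the estimate held and its error was larger.

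*OAS2*, another synthetase of 2-5A, had 15.6, 18.3 and 16.1 CPM in SCR1, 20.9, 17.7 and 20 with sgRNA_96, and 21.8, 20.4 and 22.4 with sgRNA_97. The value of sgRNA_96 replicate 3 fell within the control range, and the log2 fold change was 0.30 ± 0.09 (adjusted p = 0.0212). The call was lost without SCR1 replicate 1 (0.128) or 4 (0.0906). *OAS1* had the largest estimate in the whole set, 0.54, at a mean of 3.65 ± 0.510 CPM in enhancer KO and 2.52 ± 0.487 in SCR1 (SD, n = 6 and 3), and it was not called (95% interval 0.13 to 0.96, adjusted p = 0.0577). *OASL*, with means under 1 CPM, had an interval from -1.04 to 0.88, so little could be read of its change at this depth.

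**Figure D3:**
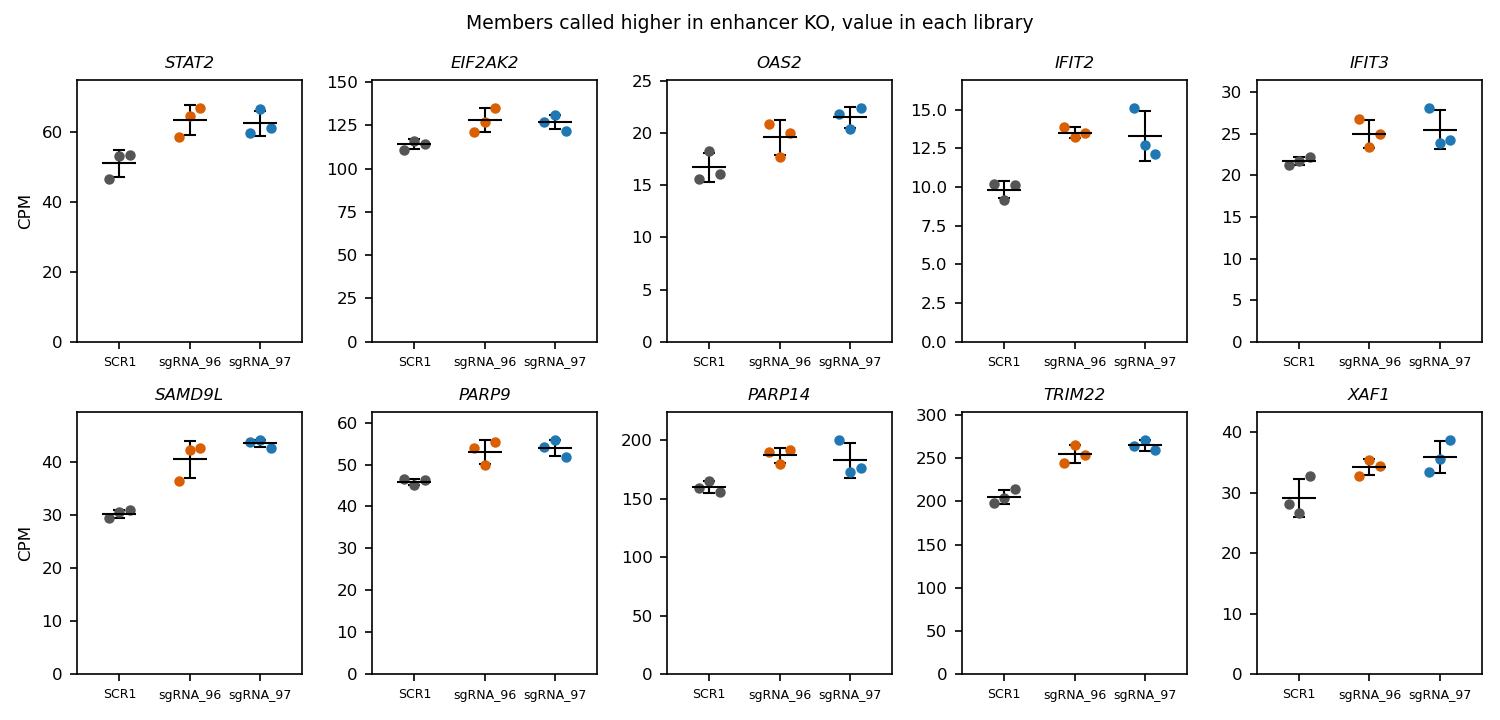
CPM on a linear axis from 0 in each library for the 10 members called higher in enhancer KO, with 3 points per group and the mean and SD in black. In every gene except OAS2 and XAF1 the KO points lie above the SCR1 points. In SAMD9L, SCR1 lies between 29.4 and 30.8 and the guides between 36.4 and 44 CPM. In XAF1 the lowest KO point is level with the highest SCR1 point, at 32.8 CPM.

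The 3 most abundant members were not called. *IFITM3* had 319, 262 and 298 CPM in SCR1, 343, 304 and 287 with sgRNA_96, and 291, 295 and 298 with sgRNA_97. The groups overlapped, and the log2 fold change was 0.05 ± 0.06 (95% interval -0.09 to 0.18, adjusted p = 0.654). On the TPM scale its mean was lower in enhancer KO (1230 ± 110 against 1340 ± 174 TPM; SD, n = 6 and 3), and without SCR1 replicate 3 its log2 fold change was -0.03, so its direction was not settled. *IFITM2* had 272, 235 and 254 CPM in SCR1, 289, 257 and 223 with sgRNA_96, and 250, 249 and 239 with sgRNA_97, a log2 fold change of -0.01 ± 0.07 (adjusted p = 0.909) that turned positive without sgRNA_96 replicate 4 (0.02), sgRNA_97 replicate 4 (0.00) or SCR1 replicate 1 (0.04). *IFITM1* had 137, 128 and 139 CPM in SCR1, 154, 151 and 128 with sgRNA_96, and 145, 154 and 157 with sgRNA_97. Its log2 fold change was 0.14 ± 0.06 (adjusted p = 0.112), and without sgRNA_96 replicate 4, which had its lowest KO value, the adjusted p was 0.0153.

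The 34 members that were not called had log2 fold changes from -0.16 (*IRF7*) to 0.54 (*OAS1*), 25 of them above and 9 below 0. Some roles were without a call, which in groups of 2 to 4 genes says little where 20.7% of all genes were called. None of the 4 genes of ISG15 and its conjugation passed, with a median log2 fold change of -0.06. *ISG15*, the ubiquitin-like modifier itself, had 14.2 ± 3.57 CPM in SCR1 and 12.8 ± 1.78 in enhancer KO (SD, n = 3 and 6; 95% interval of the log2 fold change -0.45 to 0.15). Neither of the MX GTPases passed, *MX1* having 4.04, 2.96 and 2.36 CPM in SCR1 and between 3.02 and 4.28 in enhancer KO (95% interval of the log2 fold change -0.23 to 0.60). None of the 4 membrane restriction factors passed, nor did any of the 3 enzymes of nucleotides and nucleic acids. The half-width of the 95% interval ranged from 0.08 for *ADAR* to 0.96 for *OASL* on the log2 scale, so for the abundant members the data limit any change to a narrow range, and for the rare ones they do not.

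**Figure D4:**
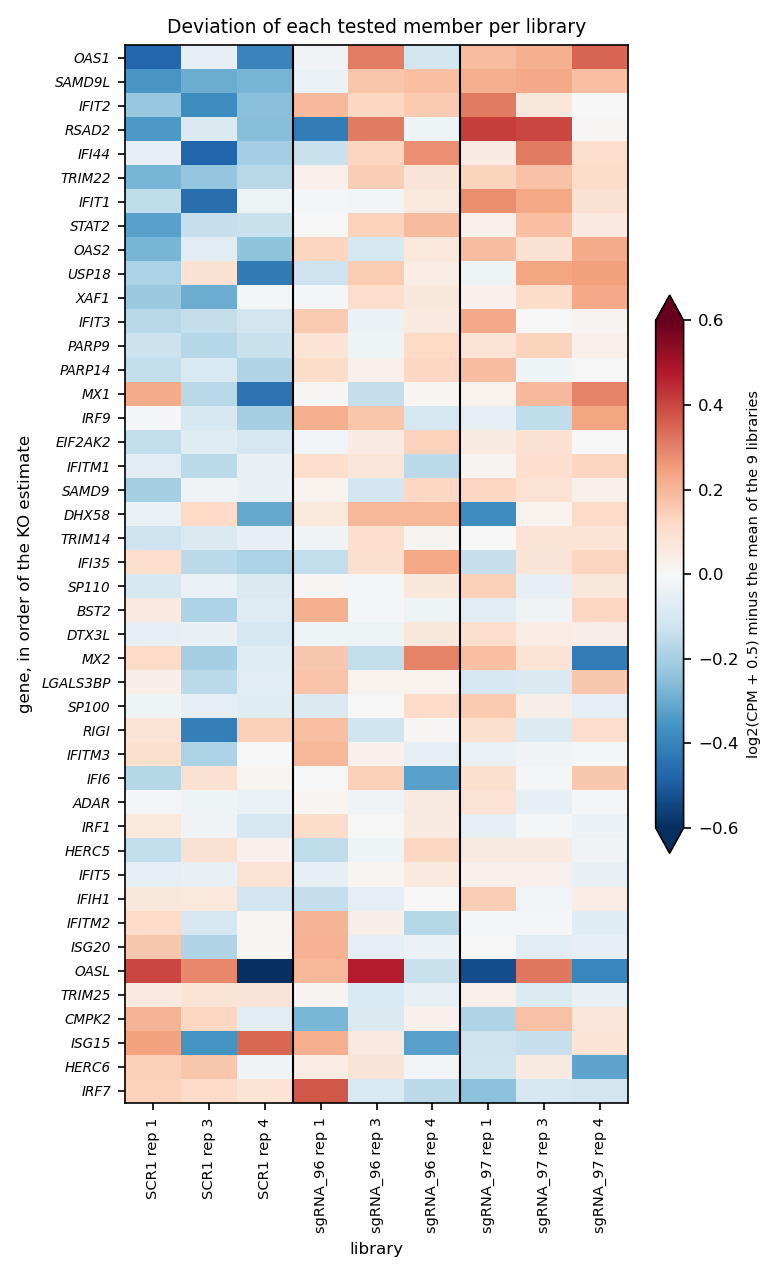
Heat map of log2(CPM + 0.5) minus the mean of the 9 libraries for each of the 44 tested members (rows, in order of the KO estimate) in each library (columns), red for higher and blue for lower. Upper rows such as SAMD9L, IFIT2, TRIM22 and STAT2 are blue in the SCR1 columns and mostly red in the guide columns. Near the bottom, TRIM25 is higher in every SCR1 library than in any guide library, and so is IRF7 apart from sgRNA_96 replicate 1.

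Per library, the median deviation of the 44 members from their mean over the 9 libraries was -0.048, -0.09 and -0.083 in SCR1 and lay between 0.019 and 0.055 in the KO libraries, while the median over all genes lay between 0.001 and 0.005. Over the 34 members that were not called the values were 0.016, -0.055 and -0.063 in SCR1 and 0.007 to 0.055 in the KO libraries. For these members SCR1 replicate 1 lay within the range of the KO libraries.

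Each guide was also compared with SCR1, the same 3 control libraries serving both. With sgRNA_96, 6 members rose and none fell, against 5.78% of all genes called higher and 5.41% called lower. These were *STAT2*, *IFIT2*, *SAMD9L*, *PARP9*, *PARP14* and *TRIM22*. With sgRNA_97, 9 members rose and none fell, against 7.35% and 7.76% of all genes, namely the same 6 and *OAS2*, *XAF1* and *IFIT1*. *IFIT1* had a log2 fold change of 0.42 ± 0.13 with sgRNA_97 (adjusted p = 0.046) and 0.22 ± 0.13 with sgRNA_96 (adjusted p = 0.321), and in 13 of 15 alternatives the call with sgRNA_97 was lost. At an unadjusted p under 0.05 there were 12 members with sgRNA_96 (27.3%, against 26.7% of all genes) and 19 with sgRNA_97 (43.2%, against 29.8%). DESeq2 called 7 members higher with sgRNA_96 and 9 with sgRNA_97, and none lower. Over all genes it called 967 higher and 949 lower with sgRNA_96, and 1123 higher and 1260 lower with sgRNA_97. *SAMD9L* and *TRIM22* were called with both guides whichever library was left out, and every other call with a guide was lost without at least 1 library. With sgRNA_96 these were *STAT2* (without SCR1 replicate 1 or sgRNA_96 replicate 3), *IFIT2* (without SCR1 replicate 3), *PARP14* (without SCR1 replicates 1 or 4 or sgRNA_96 replicate 4) and *PARP9* (without any 1 SCR1 library or sgRNA_96 replicates 1 or 4). Without SCR1 replicate 1 the counts were 3 with sgRNA_96 (774 of all genes) and 2 with sgRNA_97 (987 of all genes). With sgRNA_97 there were 5 called members without SCR1 replicate 3, 5 without SCR1 replicate 4 and 5 without sgRNA_97 replicate 3. There were 6 without sgRNA_97 replicate 1 and 6 without sgRNA_97 replicate 4. In that order, 1791, 1243, 1121, 1663 and 1701 of all genes were called.

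A call with 1 guide only is no evidence of a difference, so sgRNA_97 was compared with sgRNA_96 directly. None of the 44 members differed between the guides in edgeR, against 0.0208% of all genes, which was 3 genes. DESeq2 called none of the members either, and none had an unadjusted p under 0.05, against 3.48% of all genes. Estimates ranged from -0.57 (*OASL*) to 0.33 (*RSAD2*) on the log2 scale. For the 10 members that rose in enhancer KO, the 95% intervals of the difference between the guides all lay within -0.27 and 0.35. The intervals differed by gene, from -0.05 to 0.16 for *TRIM22* and from -0.27 to 0.21 for *IFIT2*. A difference inside a gene's own interval could not be told from 0 with 3 libraries per guide. For *IFIT1* the interval ran from -0.09 to 0.48.

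Genes around the pathway were counted from lists chosen, like the set, with earlier results of these data known. Of the 21 interferon genes listed, 19 had 0 counts in all 9 libraries, which allows at most 3 counts, or 0.101 to 0.197 CPM, per library. *IFNB1* had 4 counts in all and *IFNA13* had 1, and no interferon gene could be tested. Among the 9 receptors and kinases, all tested, 2 rose and 1 fell, where 10.1% of all genes were called higher and 10.6% lower. *JAK1*, the kinase shared by all interferon receptors, had 159, 161 and 151 CPM in SCR1 and from 171 to 189 in enhancer KO, a log2 fold change of 0.19 ± 0.04 (adjusted p = 0.00705). The call was lost without SCR1 replicate 4 (0.0597), with the length offset (0.0634) and with limma on log2(TPM + 1) (0.103). *JAK2*, which acts at the interferon-gamma receptor and at cytokine receptors, had 18.1, 20.8 and 18.2 CPM in SCR1 and from 20.5 to 26.8 in enhancer KO, and rose by 0.33 ± 0.09 (log2; adjusted p = 0.0132), a call lost without SCR1 replicate 1 (0.0869) or 4 (0.066), with the length offset (0.102) and with limma on log2(TPM + 1) (0.225). *IFNLR1*, the receptor subunit for type III interferons, had 9.51, 9.92 and 11.4 CPM in SCR1 and from 6.43 to 9.09 in enhancer KO. Its log2 fold change was -0.44 ± 0.12 (adjusted p = 0.0145), a fall, and the call was lost without SCR1 replicate 4 (0.0995), with the length offset (0.187) and with limma on log2(TPM + 1) (0.244). The receptor subunits *IFNAR1* and *IFNAR2* were not called, at log2 fold changes of 0.03 and 0.09.

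Of 16 genes of nucleic acid sensing 12 were tested and 1 rose, no larger a share than the 10.1% of all genes. This was *STING1*, the endoplasmic reticulum adaptor of cytosolic DNA sensing, with 11.8, 12.0 and 11.1 CPM in SCR1 and from 14.7 to 17.7 in enhancer KO, a log2 fold change of 0.49 ± 0.09 (adjusted p = 0.000833). *CGAS*, the sensor upstream of it, had a log2 fold change of -0.03 (95% interval -0.21 to 0.14). Of 6 negative regulators 5 were tested, and *PIAS1*, a SUMO ligase that restrains STAT proteins, rose by 0.15 ± 0.05 (log2; adjusted p = 0.0327). That call was lost without SCR1 replicates 1 or 4 (0.179 and 0.124), without sgRNA_96 replicates 3 or 4 (0.0618 and 0.0519) and without sgRNA_97 replicate 1 (0.0577), as well as with no filter (0.0849), the length offset (0.401) and limma on log2(TPM + 1) (0.453).

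Of 13 genes best known from the response to interferon gamma, 8 were tested, 4 rose and 1 fell, against 10.1% and 10.6% of all genes, while *IFNG* itself had 0 counts. Since earlier results were known when the list was chosen, its share of calls is a description and does not measure an excess. *CIITA*, the master regulator of MHC class II genes, had 188, 203 and 195 CPM in SCR1 and from 264 to 301 in enhancer KO, a log2 fold change of 0.54 ± 0.05 (adjusted p = 1.82e-06). *NLRC5*, its counterpart for MHC class I, had 109, 110 and 108 CPM in SCR1 and from 146 to 174 in enhancer KO, a log2 fold change of 0.57 ± 0.05 (adjusted p = 3.53e-06). In both genes the highest control library lay well below the lowest KO library. *GBP4*, a guanylate-binding GTPase, had 65.1, 64.3 and 60.4 CPM in SCR1 and from 89.6 to 106 in enhancer KO, a log2 fold change of 0.65 ± 0.06 (adjusted p = 2.39e-06). *GBP2* rose by 0.49 ± 0.12 (log2; adjusted p = 0.0096) from a mean of 5.94 CPM in SCR1 to 8.33 CPM in enhancer KO, and the call was lost without SCR1 replicate 4 (0.0661), with the length offset (0.18) and with limma on log2(TPM + 1) (0.204). *GBP1*, in the same gene cluster, had a log2 fold change of -0.01 with an interval from -0.16 to 0.14. *WARS1*, the tryptophanyl-tRNA synthetase, moved the other way, from 93.4, 91.1 and 82.5 CPM in SCR1 to values between 65.4 and 72.2, a fall with a log2 fold change of -0.37 ± 0.05 (adjusted p = 0.000131). The chemokine genes *CXCL9*, *CXCL10* and *CXCL11* had 0, 1 and 2 counts in all.

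**Figure D5:**
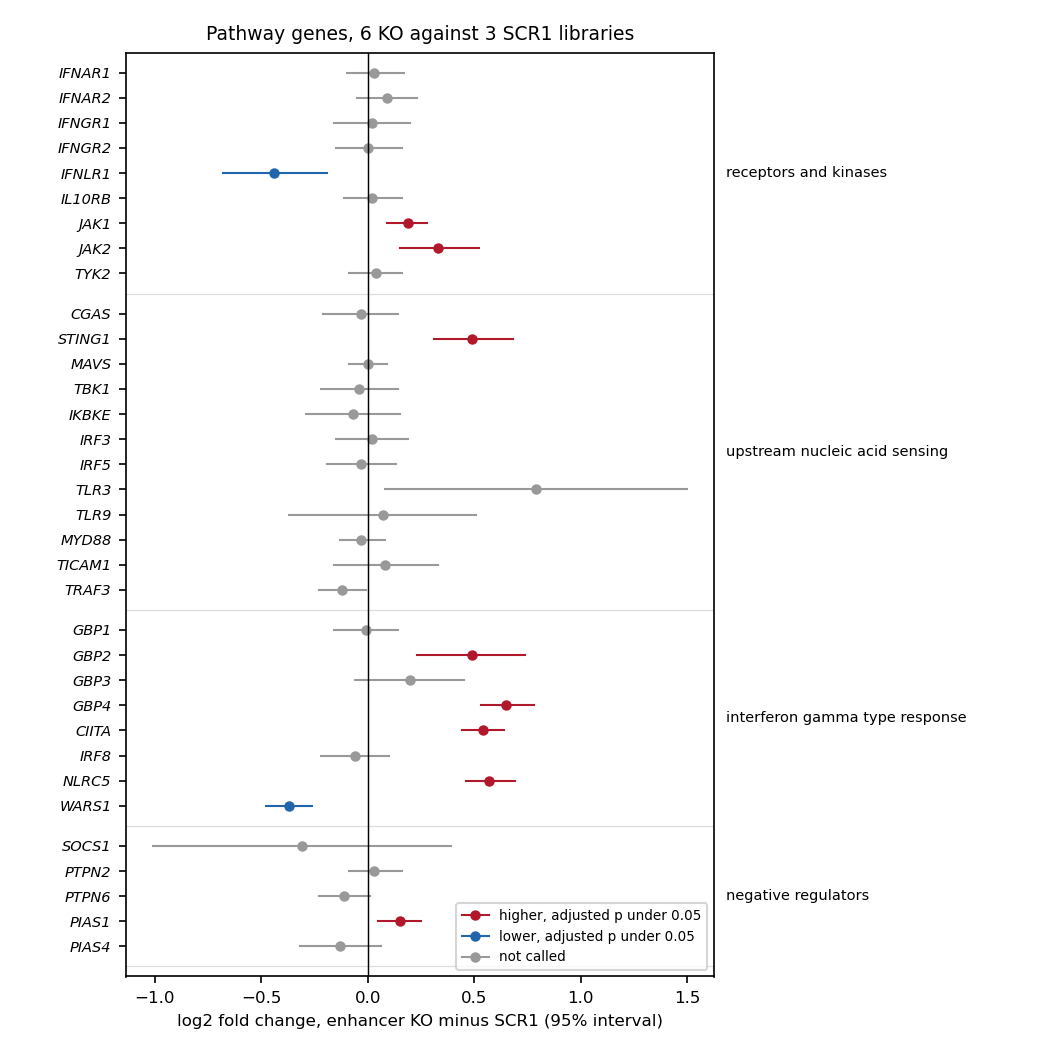
Log2 fold change of enhancer KO over SCR1 with 95% intervals for the tested genes of 4 pathway lists, red for called higher, blue for called lower and grey for not called. GBP4, NLRC5 and CIITA sit at 0.54 to 0.65 with short intervals, and IFNLR1 and WARS1 are the only ones called lower.

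Plasmacytoid dendritic cells are the classical source of type I interferon. Their 4 markers were listed for levels, with no test planned. Of these, 2 passed the filter, and 1 was called in enhancer KO but with neither guide alone. *IL3RA*, a cytokine receptor subunit that leukemia cells also carry, had 1.46, 2.96 and 2.36 CPM in SCR1 and from 2.91 to 4.35 in enhancer KO (log2 fold change 0.78 ± 0.23, adjusted p = 0.0228). The ranges of the 2 groups overlapped, and only the entry of *IL3RA* on chromosome X, 1 of 2 in the annotation, was counted. The summed level of the 4 markers was 3.22 to 5.47 CPM in SCR1 and 5.69 to 7.48 in enhancer KO. The defining marker *CLEC4C* had 0 counts and *LILRA4* had 21 counts over all libraries, so most of this sum came from *IL3RA* and *NRP1*. The 4 monocyte markers summed to 16.1 to 18.7 CPM in SCR1 and 13.4 to 16.9 in enhancer KO, nearly all of it *CSF1R*, with *FCGR3A* at 0 counts, and none was called.

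Reads of some members could be divided with other gene models, and the values of these members are uncertain to that extent. Stretches of 100 bases from the leading transcript were also found in other genes, read in the same direction, for 96.6% of *RIGI*, 67.8% of *IRF9*, 50.1% of *IFITM1*, 36.4% of *USP18*, 16.4% of *IFI6* and 8.20% of *IFITM3*. Read in the opposite direction, the largest shares after that of *XAF1* (below) were 10.7% for *IRF9*, 7.29% for *IRF1* and 6.5% for *TRIM25*. *RIGI*, the sensor of RNA with a triphosphate end, had 14.6 CPM in SCR1 replicate 3 and 20.7 and 21.7 in the other control libraries, and the gene model that covers it (ENSG00000288684) had 6.73 CPM in replicate 3 and 0.645 and 2.27 in the others. Added together, they gave 21.3 to 24.0 CPM in SCR1 and 22.3 to 24.9 in enhancer KO, so the spread of *RIGI* between control libraries was narrower once both were counted. For *IRF9* the other model (ENSG00000259529) had 7.98 to 15 CPM in SCR1, as much as *IRF9* itself, and the sum was 17.2 to 23.1 CPM in SCR1 and 18.1 to 24.1 in enhancer KO. Of the members that rose, *XAF1* shared 73.5% of its leading transcript with a gene on the opposite strand, *PRAL*, which had 1 count over all libraries. *IFIT2* and *IFIT3* overlap the gene model of *LIPA* on the opposite strand, and no stretch of their leading transcripts was found in another gene.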

How the data were processed

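RNA-seq reads were trimmed, aligned to hg38 with STAR and quantified with Salmon 1.10.1 by the authors, who deposited estimated counts per transcript without normalization and, in a second table, TPM, which are scaled for length and to a fixed total. Whether the counting used strand and which annotation release was used are not given in the sources used here. All 252835 transcripts matched GENCODE 44, and no column (0) lacked a sample. Salmon divides reads between similar transcripts, so values of such genes rest on that division.

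Estimated counts were summed per gene, rounded, filtered by filterByExpr (minimum count 10) and scaled by TMM. R 4.3.3 and edgeR 4.0.16 were used for quasi-likelihood tests, whose p-values were adjusted after Benjamini and Hochberg across the 14436 genes kept and called under 0.05. All adjusted p-values come from this test unless another is named. Enhancer KO (6 libraries) against SCR1 (3) was a fit of 2 groups, and the guides were compared in a fit of 3 groups. Alternatives were DESeq2 1.42.0, which the study's methods name, RLE size factors, no filter, limma 3.58.1 on log2(TPM + 1) or log2(TPM + 0.1), a gene length offset, a replicate block and leaving out each library. Leaving out both libraries that stood apart on the second principal component was added after seeing the data. Within groups, the chi-square per degree of freedom between pairs of libraries was 4.36 to 8.82, above that of sampling noise, so no library was a duplicate. The tests were checked on simulated data. Intervals are 95% intervals of the fit, and the limit of 3 counts covers counting error only. Sequences and the share of promoters with a motif come from RefSeq, and shared stretches from all GENCODE 44 transcripts. A planned comparison of protein sequences was not run.

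The members and lists were chosen with earlier results of these data known. Full values are given for members called in enhancer KO, for the 4 transcription factors and for the 3 members of highest mean TPM, members called with 1 guide only are named, members below the filter are named with their counts, and pathway genes are named where called. Other members named above were chosen after their values were seen.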

Additional observations from a re-analysis of the deposited data

Results flagged for a closer look

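Of 28 genes named with values, 4 had 1 of the 6 KO libraries farther from the others than the 95% critical value of Dixon's test allows, and chance alone does so in about 1 of 20 groups. 3 of the 4 were in sgRNA_96 replicate 1, which also stood apart on the second principal component. There *IRF7* had 11.7 CPM against 7.48 to 8.37 in the other KO libraries, *IFITM3* had 343 CPM against 287 to 304, and *SAMD9L* had 36.4 CPM against 42.2 to 44. The fourth was *MEF2C* in sgRNA_97 replicate 1, the other library that stood apart, with 553 CPM against 495 to 510. No member differed between the guides in the direct test.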

How the results depend on the processing

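Depth limits the rare members most, as the widest intervals belong to *OASL*, *RSAD2*, *MX1* and *OAS1*. Deviations of equally numbered libraries correlated between -0.066 and 0.055 over 9 pairs, so no effect shared by replicate number was seen. Correlations of this kind cannot tell whether equally numbered libraries were prepared together. A replicate block gave 2936 genes and 10 members in enhancer KO, 5 members with sgRNA_96, 8 with sgRNA_97, and 1 gene instead of 3 between the guides.

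In enhancer KO against SCR1, 2984 genes and 10 members were called. With limma on log2(TPM + 1) there were 1240 genes and 6 members, with limma on log2(TPM + 0.1) 1246 and 6, with limma and no filter 648 and 1, and with the gene length offset 1525 genes. Leaving out 1 library gave 1503 to 3547 genes, 6 to 14 members and a median log2 fold change of members from 0.09 to 0.14. With sgRNA_96 the main counts of 1615 genes and 6 members became 448 and 0, 451 and 0, 201 and 0, and 661 and 1 under the same 4 alternatives. The median over members was 0.11 with limma and no filter, and leaving out 1 library gave 760 to 2027 genes, 3 to 6 members and medians from 0.10 to 0.17. With sgRNA_97 the 2181 genes and 9 members became 706 and 3, 706 and 3, 311 and 0, and 923 and 5. The median was 0.09 without the filter in edgeR and 0.09 with limma and no filter, and leaving out 1 library gave 987 to 1791 genes, 2 to 6 members and medians from 0.12 to 0.14. Between the guides 3 genes were called, 8 with DESeq2, 106 without the filter, 0 with limma at either pseudocount, 1 with limma and no filter, 1 with the length offset, and 1 to 5 without 1 library. No member was called between the guides under any alternative.

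Over the named genes, 654 of the recomputed values kept their direction and their side of the threshold, 162 kept the direction and lost the call, 9 gained a call and 9 changed sign. The changes of sign were all in members that were not called. *IFITM3* was at -0.12 with limma on TPM at either pseudocount or without the filter, at -0.13 with the length offset and at -0.03 without SCR1 replicate 3. *IFITM2* ranged from -0.07 to 0.04 when 1 library was left out and was at 0.02 without sgRNA_96 replicate 4, at 0.00 without sgRNA_97 replicate 4 and at 0.04 without SCR1 replicate 1, and *IRF1*, when 1 library was left out, ranged from -0.01 (without SCR1 replicate 4) to 0.07, and it was at 0.10 on TPM and with the length offset. Among called members, *SAMD9L* kept its call in enhancer KO under all 18 alternatives and *IFIT3* under 5. The causes were not tested.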
